A study of Homo sapiens with 2 samples.

Results

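The genes described here are the Wnt ligands, the Frizzled receptors and 2 families of secreted Wnt antagonists in CAMA-1, an established breast cancer cell line of the luminal type. They were chosen by symbol alone, as the autosomal protein-coding genes of GENCODE release 44 whose names begin with WNT, FZD, SFRP or DKK and a digit. This rule gave 37 of 19111 autosomal protein-coding genes, made up of 19 WNT, 10 FZD, 4 SFRP and 4 DKK genes. Open chromatin was mapped by ATAC-seq, a method that lets the Tn5 transposase insert sequencing adapters where DNA is not packed away. The samples were 2 biological replicates of 50000 CAMA-1 cells, grown as adherent cultures in medium with serum and with no treatment named in the labels. Both replicates belong to a single condition of a single cell line, so the data describe the state of these genes in CAMA-1 and contain no comparison with another cell type or treatment. All coordinates are on hg38.

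Wnt proteins are secreted, lipid-modified ligands that bind the extracellular cysteine-rich domain of Frizzled (FZD) receptors, together with the co-receptors LRP5 and LRP6. In the canonical branch, binding stops the destruction of β-catenin, which enters the nucleus and acts with TCF and LEF factors on target genes. Other ligand and receptor combinations act through planar polarity and calcium signals. The secreted Frizzled-related proteins (SFRP) carry a Frizzled-like domain and bind Wnt ligands outside the cell, and the Dickkopf (DKK) proteins DKK1, DKK2 and DKK4 act on the LRP co-receptors. In the mammary gland, Wnt signals take part in the growth of the ducts and in the response to progesterone, and Wnt1 was found as a gene that causes mammary tumors in mice. An ATAC-seq peak at a transcription start site (TSS) shows that the DNA there can be cut, not that the gene is transcribed.

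The peak list of replicate 1 held 245736 peaks and that of replicate 2 held 259745. The strength of a peak is given as its fold enrichment, the authors' ratio of the reads stacked at its highest point to the genome-wide background. Within a list, every fold enrichment was a multiple of the same step (to within 8.13e-05 of a step), which returned the height of each peak in stacked reads over a background of 3.35 reads in replicate 1 and 3.52 in replicate 2. No peak had a height below 11, so a weaker opening was not detectable at this depth. Intervals for heights are exact 95% Poisson intervals, intervals for shares are 95% Wilson intervals, and both cover counting error only. As the cells were measured in bulk, an opening in fewer cells and a weaker opening in every cell cannot be told apart. The labelled cell type was checked with genes that mark luminal breast epithelium, such as KRT8, FOXA1, GATA3 and ESR1. All 10 had a peak within 1 kb of a TSS in both replicates, with fold enrichments of 31.3 to 140.1 in replicate 1 and 32.5 to 147 in replicate 2. The same held for 5 of 5 basal and 6 of 6 fibroblast marker genes at lower medians (28.5 and 17.7 in replicate 1, against 96.9 for the luminal genes) and for 2 of 6 blood genes, with none at PTPRC, CD3E, SPI1 and MS4A1.

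A peak within 1 kb of any annotated TSS was called in both replicates for 30 of the 37 genes, or 81.1% (65.8 to 90.5%). The background is 80.5% of the 19111 autosomal protein-coding genes, so the share of these families with a TSS peak was that of genes at large. By family, the counts were 15 of 19 WNT genes, 9 of 10 FZD genes, 3 of 4 SFRP genes and 3 of 4 DKK genes. WNT8A and DKK4 had a TSS peak in 1 replicate only. WNT2, WNT8B, WNT16, FZD10 and SFRP5 had none in either. With a single condition and genes that were not drawn as a sample, none of these shares was tested.

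The strongest TSS peaks of these genes were weaker than those of most genes with a TSS peak. Over the 30 genes, the median fold enrichment of the strongest TSS peak was 34.2 in replicate 1 and 32.2 in replicate 2, or 33.2 ± 1.41 (SD, n = 2). Over the 15379 genes of the genome with such a peak the median was 52.2 and 54.2, or 53.2 ± 1.38. Genes of the 2 main families differed in level: the FZD median was 49.2 ± 5.47 and the WNT median 21.4 ± 3.95, a gap larger than the spread between the replicates. The SFRP median was 29.9 ± 2.28 and the DKK median 16.4 ± 3.17, each over 3 genes. Ranked among all 19111 genes, with genes without a peak at the bottom, the median gene of the 37 stood at percentile 38.4 in replicate 1 and 34.8 in replicate 2. The median FZD gene stood at 52.1 and 54.2, and the median WNT gene at 31.1 and 30.5. When only the 50000 strongest peaks of each replicate were kept, 9 FZD genes still had a TSS peak in both, against 6 WNT genes and 3 SFRP or DKK genes, and 62.6% of all genes.

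**Figure D1:**
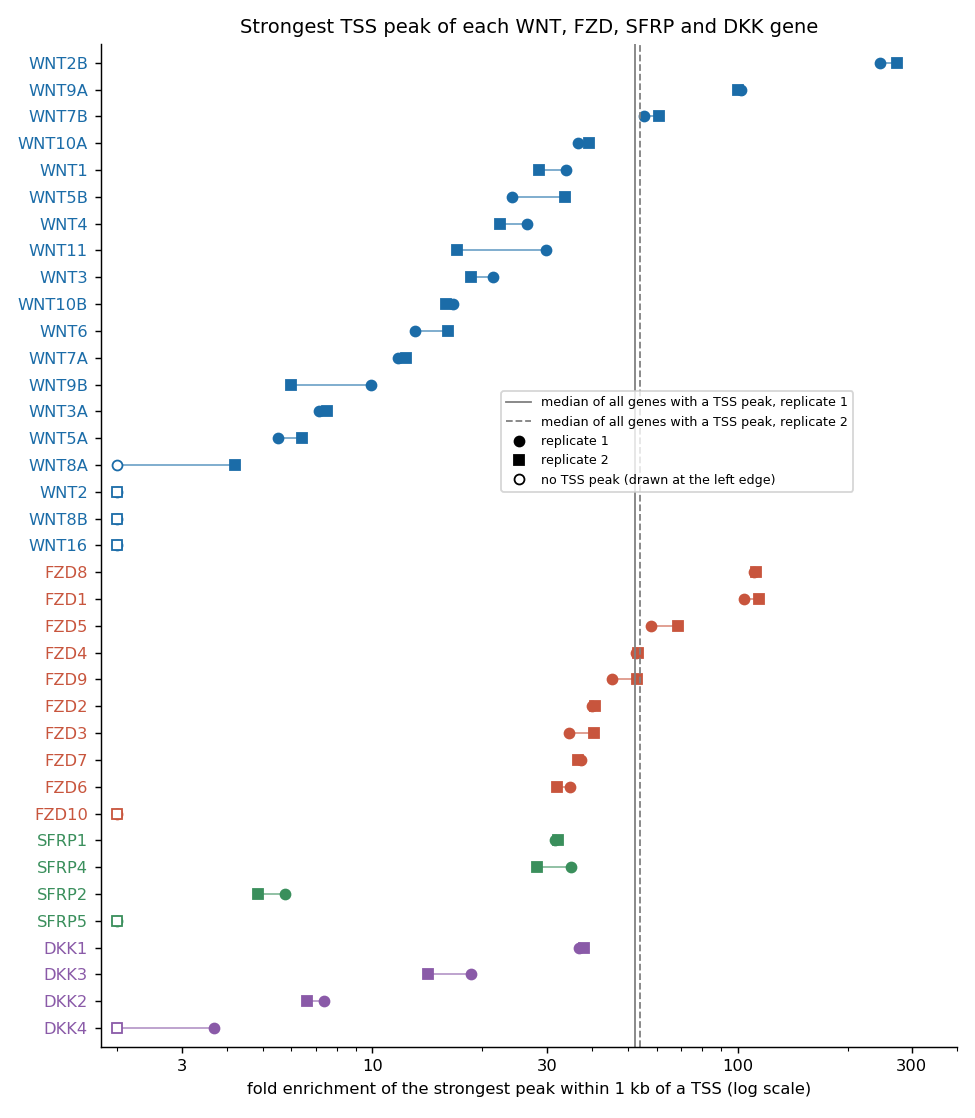
Fold enrichment (log scale) of the strongest peak within 1 kb of a TSS for each of the 37 genes, sorted within families; circles are replicate 1, squares are replicate 2, and open symbols at the left edge mark replicates without a peak. The grey lines are the medians of all genes with a TSS peak (52.2 and 54.2); WNT2B stands far to the right at 245 and 274, and the FZD genes other than FZD10 lie between 32.1 and 115.

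**Figure D2:**
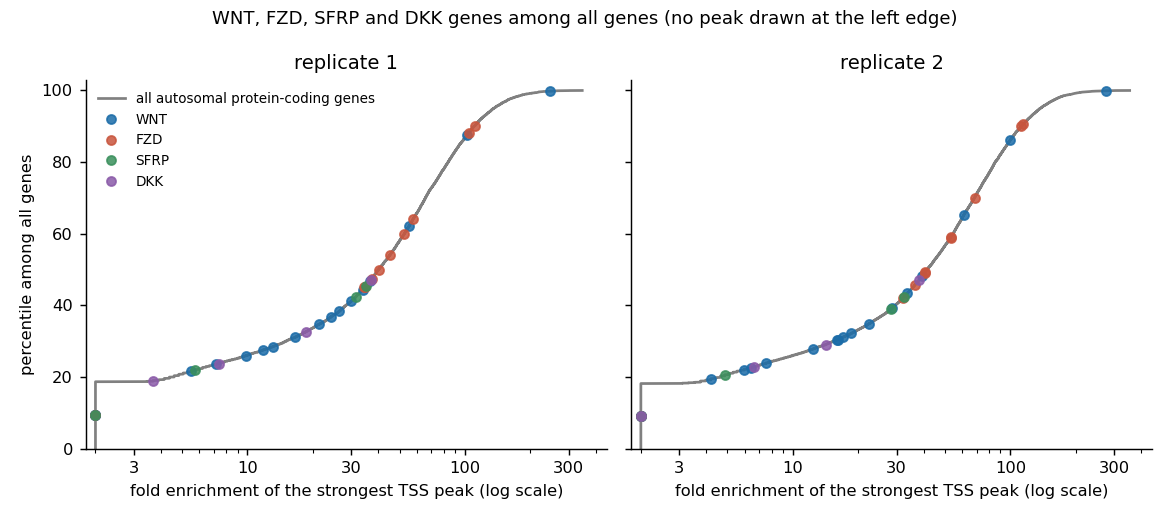
Percentile (vertical axis, %) of each gene among 19111 autosomal protein-coding genes against the fold enrichment (log scale) of its strongest TSS peak, in replicate 1 (left) and replicate 2 (right); the grey line is the distribution of all genes, and genes without a peak share the lowest position at the left edge. Colored points are the 37 genes by family, of which 7 in replicate 1 and 6 in replicate 2 lie above the median of the genes with a peak.

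Among the WNT ligands, WNT2B had the strongest peak within 1 kb of any TSS. WNT2B, a ligand of the canonical branch, lies at chr1:112466541-112530165 on the forward strand. Its strongest peak, at chr1:112464254-112466647 in replicate 1, spanned 2394 bp and reached 1065 stacked reads (1002 to 1131) in replicate 1 and 1238 (1170 to 1309) in replicate 2. The fold enrichments were 245 and 274, or 259.6 ± 20.3 (SD, n = 2), which put the gene at percentiles 99.8 and 99.9 of all genes. The peak held the most 5′ TSS of WNT2B near its right edge and otherwise lay upstream of it. With the peak midpoint required to lie within 1 kb of a TSS, or with the TSS of the canonical transcript only, the mean of WNT2B was 86.3, and at the canonical TSSs WNT9A (101.2) stood above it. Genes around WNT2B also had strong promoter peaks: the median of those with a TSS peak and a TSS within 5 Mb was 85.6 in replicate 1, above the median of 52.2 over all genes. Among these 115 neighbors WNT2B stood at percentile 97.4 in both replicates. A single background was used for the whole genome, so the DNA copies of a region move with the fold enrichment of its peaks, and their part in these levels was not tested.

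WNT9A and WNT7B were the next WNT ligands. WNT9A (chr1:227918656-227947932, reverse strand) had fold enrichments of 102 and 99.9, at percentiles 87.6 and 86.2, in a region 3228 bp wide that held its TSS and reached into intron 1. The peak that held the TSS itself had 37.7 in replicate 1 and 99.9 in replicate 2, since in replicate 1 the strongest peak of the region lay in the gene and ended before the TSS. With a window of 100 bp the mean of WNT9A was 68.8, and with the peak midpoint required to lie in the 1 kb window it was 18.9. WNT7B (chr22:45920366-45977162, reverse strand), a ligand with a role in lung, kidney and mammary ducts, had 55.5 and 61.0. Its peak was the widest among the 37 genes, with 5882 bp in replicate 1 and 5500 bp in replicate 2, and all 5 annotated TSSs of the gene lay in it or within 1 kb of it. These 3 were the only WNT genes above the median of the genes with a TSS peak, in either replicate.

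The promoter windows of the 4 genes with the strongest peaks within 1 kb of a TSS are shown because regions open in both replicates covered them. They run from 250 bp upstream to 50 bp downstream of the RefSeq start (GRCh38.p14), and capitals mark GC boxes (GGGCGG on either strand), the motif bound by SP1 and related factors. The windows lie at chr1:112466291-112466590 (forward strand, WNT2B), chr10:35642247-35642546 (reverse strand, FZD8), chr7:91264183-91264482 (forward strand, FZD1) and chr1:227947883-227948182 (reverse strand, WNT9A). A GC box was found in 57.1% of the 20584 promoters in the RefSeq table.
WNT2B: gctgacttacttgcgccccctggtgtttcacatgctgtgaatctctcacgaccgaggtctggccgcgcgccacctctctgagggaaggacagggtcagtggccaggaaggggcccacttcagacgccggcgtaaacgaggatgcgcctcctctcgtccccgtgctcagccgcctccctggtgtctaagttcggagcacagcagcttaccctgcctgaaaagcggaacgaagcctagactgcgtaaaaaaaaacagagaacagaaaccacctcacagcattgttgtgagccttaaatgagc
FZD8: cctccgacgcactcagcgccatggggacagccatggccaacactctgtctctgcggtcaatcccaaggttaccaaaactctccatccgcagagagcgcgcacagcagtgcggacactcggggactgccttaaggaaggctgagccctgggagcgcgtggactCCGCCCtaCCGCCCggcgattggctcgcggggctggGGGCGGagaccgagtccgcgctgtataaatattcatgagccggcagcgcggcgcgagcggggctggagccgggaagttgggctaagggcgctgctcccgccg
FZD1: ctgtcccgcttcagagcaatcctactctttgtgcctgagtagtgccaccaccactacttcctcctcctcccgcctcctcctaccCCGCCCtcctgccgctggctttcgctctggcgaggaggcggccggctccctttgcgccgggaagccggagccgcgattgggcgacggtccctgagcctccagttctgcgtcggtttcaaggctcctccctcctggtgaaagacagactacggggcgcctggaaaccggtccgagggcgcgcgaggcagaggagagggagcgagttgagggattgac
WNT9A: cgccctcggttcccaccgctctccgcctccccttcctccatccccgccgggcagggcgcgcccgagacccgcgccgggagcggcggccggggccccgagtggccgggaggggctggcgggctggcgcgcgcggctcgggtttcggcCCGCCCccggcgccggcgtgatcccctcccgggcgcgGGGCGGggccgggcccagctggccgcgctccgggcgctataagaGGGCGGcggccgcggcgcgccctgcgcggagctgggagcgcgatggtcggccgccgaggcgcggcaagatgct
The WNT2B window, with the highest fold enrichment, had no GC box and no other searched motif, and 18 CpG sites at a GC content of 57.7%. The WNT9A window had 53 CpG sites at a GC content of 83.0% and 3 GC boxes, and the FZD8 window 31 CpG sites and 3 GC boxes.

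The other WNT promoters were open at lower levels. WNT10A, at 36.6 and 39.1, was followed by WNT1, the founding mammary oncogene of the family, at 33.8 and 28.5. WNT5B, a ligand of the noncanonical branch, had 24.2 and 33.6 in a region that held none of its TSSs. The intervals of its heights, 104 (85.0 to 126) and 151 (128 to 177) stacked reads, did not overlap between the replicates. These heights are not scaled to the different backgrounds of the replicates. Within 1 kb of the canonical TSS only, the mean of WNT5B was 9.39, against 28.9 for any TSS. WNT4, which acts downstream of progesterone in the mammary gland, had 26.5 and 22.3. WNT3 had 21.4 and 18.6, WNT10B 16.6 and 15.9, WNT6 13.1 and 16.1, and WNT7A 11.7 and 12.4. For WNT11, the values of 29.9 and 17.0 came from different regions. A region at chr11:76207501-76208050 with fold enrichments of 29.9 and 29.2 touched the 1 kb window around a TSS in replicate 1 only, and the peak that held this TSS had 17.0 in both replicates.

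Within 1 kb of a TSS, the weakest WNT peaks called in both replicates were those of WNT5A, WNT3A and WNT9B. WNT5A, the main noncanonical ligand, had 5.52 and 6.41, with heights of 23 (14.6 to 34.5) and 28 (18.6 to 40.5) reads. The values came from separate regions, neither of which held a TSS of its own. WNT3A, a strong canonical ligand, had 7.13 and 7.52 in a peak upstream of the gene, and the peak over its TSS had 5.75 and 4.64. With a window of 3 kb the mean of WNT3A was 70.6, from a region upstream of the gene with 69.5 and 71.6, and that of WNT5A was 16.7. WNT9B had 9.89 at its most 5′ TSS in replicate 1 and 5.97 at an internal TSS in replicate 2, and the peak at the most 5′ TSS also covered a TSS of WNT3. All 3 genes stood at percentile 26.0 or lower in both replicates.

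The receptors were more alike. All FZD genes other than FZD10 had a TSS peak that held a TSS of the gene, with fold enrichments of 34.5 to 111 in replicate 1 and 32.1 to 115 in replicate 2. FZD8 and FZD5, which are close relatives, had 111 and 112 and 57.8 and 68.5. FZD8 (chr10:35638247-35642296, reverse strand) had the strongest promoter peak of all genes within 5 Mb (percentile 100 in both replicates among 19 neighbors, whose median was 37.7 in replicate 1). Its peak also held the TSSs of the noncoding genes ENSG00000287528 and MIR4683. Of FZD1, FZD2 and FZD7, another group of relatives, FZD1 (chr7:91264433-91271326) had 104 and 115, FZD2 had 40.0 and 40.7, and FZD7, a receptor often studied in breast cancer, had 37.3 and 36.5. FZD1 (109.4 ± 7.29) and FZD8 (111.6 ± 1.01) could not be ordered beyond the spread of their replicates.

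The remaining receptors had TSS peaks between 32.1 and 53.3. FZD4, also the receptor of Norrin, had 52.7 and 53.3, and its peak held the TSS of the divergent transcript FZD4-DT. FZD9 had 45.3 and 53.1. FZD3 and FZD6, the receptors of the planar polarity branch, had 34.5 and 40.5 and 34.7 and 32.1. The FZD peaks were wide, with a median width of 1610 bp in replicate 1 and 1513 bp in replicate 2. The medians over all genes were 1043 and 1054 bp.

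FZD10 (chr12:130162459-130165740, forward strand) was the exception, with no peak at a TSS or anywhere in the gene in either replicate. The nearest peak lay 19400 bp from a TSS in replicate 1 and 71759 bp away in replicate 2. The 300 bp around its most 5′ TSS had a GC content of 77.7% and a ratio of observed to expected CpG of 0.890. It was the only gene of the 37 without any peak in the gene or within 1 kb of a TSS in either replicate. DKK4 and WNT8A, at the limit of detection, had TSS peaks of 3.68 (15 reads, 8.40 to 24.7) in replicate 1 and 4.20 (18 reads, 10.7 to 28.4) in replicate 2.

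WNT2, WNT8B, WNT16 and SFRP5 also had no TSS peak in either replicate. WNT2, which has a role in the stroma of several organs, lies at chr7:117275451-117323152, and its nearest peak was 9997 bp from a TSS in replicate 1 and 10109 bp in replicate 2. For WNT16, at chr7:121325367-121341104, these distances were 8498 and 8505 bp, and for WNT8B, at chr10:100463009-100483744, they were 18453 and 18471 bp. SFRP5, at chr10:97766751-97771999, had a peak 2791 and 2748 bp from its TSS. The windows of 3 of these promoters are shown because they differ in base composition while none held a peak. The window of SFRP2, whose TSS peak had the lowest mean among those called in both replicates, is shown beside them. In replicate 1 alone, WNT5A was lower (5.52 against 5.75). The windows are chr7:117323009-117323308 (reverse strand, WNT2), chr10:97771950-97772249 (reverse strand, SFRP5), chr10:100462759-100463058 (forward strand, WNT8B) and chr4:153789034-153789333 (reverse strand, SFRP2), with GC boxes and GATA motifs (AGATAA, in 7.81% of RefSeq promoters) in capitals.
WNT2: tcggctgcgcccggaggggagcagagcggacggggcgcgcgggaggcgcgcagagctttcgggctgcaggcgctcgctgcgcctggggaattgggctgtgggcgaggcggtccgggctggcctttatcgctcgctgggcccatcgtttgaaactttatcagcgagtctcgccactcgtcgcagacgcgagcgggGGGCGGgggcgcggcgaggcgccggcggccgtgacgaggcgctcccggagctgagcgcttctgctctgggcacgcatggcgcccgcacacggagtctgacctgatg
SFRP5: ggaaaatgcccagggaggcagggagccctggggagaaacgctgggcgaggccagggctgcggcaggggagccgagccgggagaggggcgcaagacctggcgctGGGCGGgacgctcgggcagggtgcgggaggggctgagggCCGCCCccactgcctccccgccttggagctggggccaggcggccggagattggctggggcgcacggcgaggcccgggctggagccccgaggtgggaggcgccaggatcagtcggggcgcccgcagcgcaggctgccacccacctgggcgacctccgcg
WNT8B: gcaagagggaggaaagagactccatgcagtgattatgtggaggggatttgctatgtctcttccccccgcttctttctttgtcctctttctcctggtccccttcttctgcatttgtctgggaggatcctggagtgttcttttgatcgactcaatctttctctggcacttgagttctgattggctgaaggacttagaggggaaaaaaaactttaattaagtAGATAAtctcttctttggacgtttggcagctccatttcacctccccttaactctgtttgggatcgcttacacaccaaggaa
SFRP2: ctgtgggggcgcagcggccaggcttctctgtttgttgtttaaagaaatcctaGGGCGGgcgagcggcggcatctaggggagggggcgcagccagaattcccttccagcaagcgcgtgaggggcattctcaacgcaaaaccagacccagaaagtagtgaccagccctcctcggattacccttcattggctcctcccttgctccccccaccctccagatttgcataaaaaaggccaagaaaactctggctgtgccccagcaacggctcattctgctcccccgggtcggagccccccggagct
The WNT2 window had 43 CpG sites at a GC content of 72.7% and 1 GC box, and the SFRP5 window 28 CpG sites at 77.3% and 2 GC boxes. WNT8B had 4 CpG sites at 45.7%, with a GATA motif and no GC box. By these counts the WNT2 window, without a peak, was richer in CpG than the open windows of WNT2B, FZD8 and FZD1.

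At 4 of the 6 antagonist genes whose TSS peak was called in both replicates, the strongest peak lay beside the TSS and not over it. No share over all genes is available for this count, so it describes these 6 genes only. SFRP1, whose promoter is methylated in many breast tumors, had 31.5 and 32.3 in a peak over an internal TSS, with the region midpoint 2563 bp downstream of the most 5′ TSS. No peak was called within 1 kb of its most 5′ TSS, which is also that of the canonical transcript, in either replicate. SFRP4 had 35.0 and 28.3, but the nearest TSS lay 96 bp outside the peak in replicate 1 and 125 bp outside it in replicate 2. SFRP2 had 5.75 and 4.86 in a peak 785 and 831 bp from its TSS. DKK1, an inhibitor that is itself a target of β-catenin, had 36.8 and 38.0, held its own TSS and that of PRKG1-AS1, and stood at percentile 86.8 in replicate 1 and 84.2 in replicate 2 among 38 genes within 5 Mb. DKK3, which does not act on the LRP co-receptors, had 18.6 and 14.2 at a distance of 314 and 315 bp. DKK2 had 7.36 and 6.63 at 912 and 904 bp. With the most 5′ TSS only, SFRP2 and DKK1 had a TSS peak in both replicates, or 2 of the 8 SFRP and DKK genes. Among all genes this share was 72.8%. With the canonical TSS only, 4 of the 8 did, without SFRP1 and DKK3, against 74.6% of all genes. With a window of 100 bp in place of 1 kb, 2 of the 8 SFRP and DKK genes (SFRP1 and DKK1) had a TSS peak in both replicates, while 15 WNT and 9 FZD genes still did, as did 74.3% of all genes.

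Several WNT genes had separate open regions near their TSSs. Regions within 1 kb of a TSS, more than 1 kb apart, were found for 10 of the 37 genes. The share over all genes was 32.0%. The 10 were WNT2B, WNT3, WNT4, WNT5A, WNT5B, WNT7A, WNT9B, WNT10A, WNT11 and DKK3. Such a region did not need to hold a TSS. Separate regions that each held a TSS were found for WNT2B, WNT3, WNT5B, WNT9B and WNT11. At WNT5A and DKK3, no region held a TSS of the gene. No separate regions were found for an FZD gene, but 7 of the 10 FZD genes have a single annotated TSS. Only 2 FZD genes have TSSs more than 1 kb apart. Among genes with TSSs more than 1 kb apart, separate regions were found for 9 of 12 WNT genes, and for 45.5% of all genes. In WNT2B, the TSS of the canonical transcript lay in the region chr1:112508323-112509062, whose midpoint was 42151 bp downstream of the most 5′ TSS and which had fold enrichments of 83.3 and 89.3. WNT10A had its strongest peak (36.6 and 39.1) over a TSS inside the gene, with the region midpoint 12186 bp from the most 5′ TSS, and values from 4.42 to 14.6 in the TSS regions before it. In WNT3, the strongest region (21.4 and 18.6) lay 60433 bp downstream of the most 5′ TSS, at which the region had 9.89 and 5.53. WNT5B had 19.6 and 17.5 in a region over an internal TSS, with the region midpoint 45024 bp from the most 5′ TSS, and no region called in both replicates at its most 5′ TSS. WNT11 had 17.0 in both replicates in a region over an internal TSS, with the midpoint 4070 bp from the most 5′ TSS, at which the values were 5.98 and 7.96. In WNT7A, the strongest of 4 TSS regions had 11.7 and 12.4.

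Most of these genes, like most genes at large, have promoters rich in CpG. A 300 bp window around the most 5′ TSS was called CpG-rich when its GC content was at least 55% and its ratio of observed to expected CpG at least 0.6. This held for 24 of 37 genes (64.9%), by family 11 WNT, 9 FZD, 3 SFRP and 1 DKK genes, and for 57.1% of all genes. Of the 24, 18 had a peak within 1 kb of that same TSS in both replicates, against 88.8% of all 10904 CpG-rich promoters. Their median fold enrichment was 37.0 and 39.3, below the 53.8 and 55.9 of CpG-rich promoters with a peak in general. The 6 without such a peak were WNT2, FZD10 and SFRP5, which had no peak at any TSS, and WNT5B, WNT10A and SFRP1, which had one at another TSS. Over all 37 genes, 24 had a peak at the most 5′ TSS in both replicates, against 72.8% of all genes. With the TSS of the canonical transcript in place of the most 5′ one, 32 of the 37 genes (86.5%) were CpG-rich, all 10 FZD genes among them, against 66.4% of all genes.

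Motifs were counted in the same 300 bp windows on both strands. A GC box was present in 23 of 37 windows (62.2%, against 54.6% of all genes) and the AP-2 motif GCCNNNGGC in 18 (48.6%, against 28.6%). The ETS motif CCGGAAG was present in 1 window, that of FZD8 (2.70%, against 12.2%). The TCF/LEF motifs CTTTGAT and CTTTGAA, through which β-catenin acts, were found in 3 windows (8.11%, against 5.1%), those of WNT5B, WNT11 and DKK1. GATA was found in 2 (WNT8B and SFRP4, against 7.01% of all genes) and the AP-1 motif TGANTCA in 1 (SFRP4, against 5.90%). The forkhead motif TGTTTAC and the estrogen response element were found in 0 windows, against 2.15% and 0.0523% of all genes. These are matches of letters and not bound sites.

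Inside the gene bodies, open regions were frequent in WNT genes and rare in FZD genes. A region was counted when peaks of both replicates overlapped and its midpoint lay in the gene and more than 1 kb from any protein-coding TSS. There were 169 such regions, 130 in WNT, 6 in FZD, 18 in SFRP and 15 in DKK genes. At least 1 was found in 28 of the 37 genes, against 70.7% of all genes, and in all 19 WNT genes. Per 10 kb of gene body away from TSSs, the median was 0.792 over the 37 genes and 0.758 over all genes, but 2.47 over the WNT genes and 0 over the FZD genes. The closeness of the first pair of medians depended on the peak list, since replicate 1 alone gave 1.33 over the 37 genes against 0.886 over all genes, and replicate 2 alone 1.37 against 0.948. At a −log10 q of at least 10 the medians were 0.507 and 0.517, with 0.934 over the WNT genes, and with the 50000 strongest peaks both were 0, with 0.155 over the WNT genes. The FZD genes offered less length, with a median of 4739.5 bp against 22783 bp in WNT genes and 26010 bp in all genes. Of the regions, 110 lay in introns of the canonical transcript (53 in intron 1), 19 in exons and 40 in parts of the gene outside that transcript. The median fold enrichment was 7.36 in replicate 1 and 7.52 in replicate 2, below the 8.97 and 9.29 of the regions in all genes. In 8 of the 169, an edge of the region still came within 1 kb of a TSS, as for the promoter region of WNT9A.

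**Figure D3:**
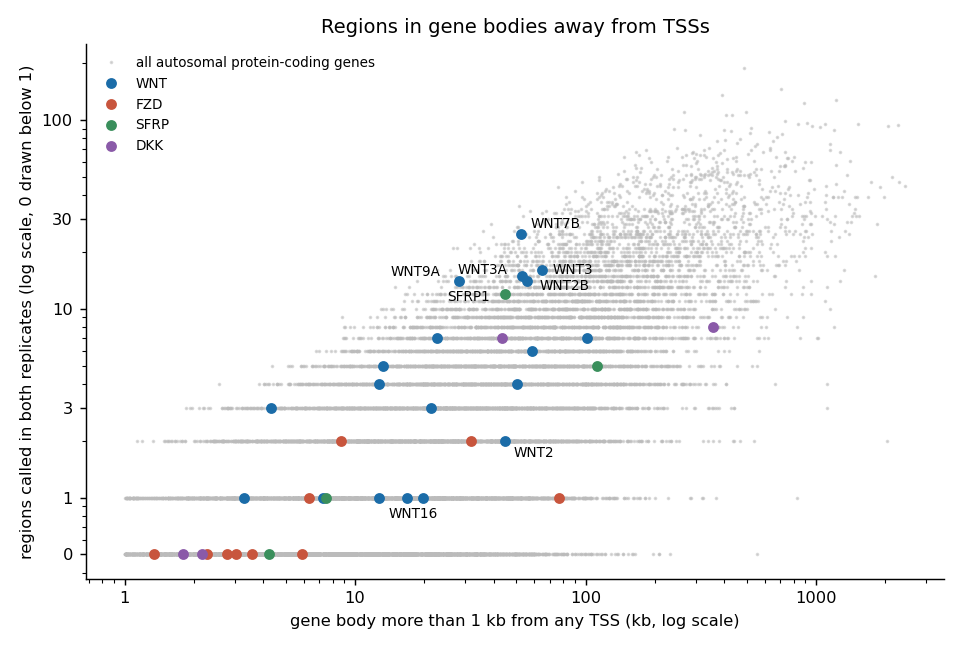
Number of regions called in both replicates (log scale, 0 drawn below 1) against the length of the gene body more than 1 kb from any TSS (kb, log scale), for genes with at least 1 kb of such length. Grey points are all autosomal protein-coding genes and colored points the 37 genes; WNT7B has 25 regions, and 6 FZD genes have 0.

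WNT7B held 25 of the 169 regions, WNT3 16, WNT3A 15, and WNT2B and WNT9A 14 each, so that these 5 genes had 49.7% of the total. SFRP1 followed with 12, and DKK2, a gene of 362005 bp, had 8. In WNT7B the regions came to 4.76 per 10 kb and in WNT9A to 4.95, below the 6.96 of WNT10B, a short gene with 3 regions. Among the WNT genes, WNT1, WNT5A, WNT8A, WNT8B and WNT16 had 1 region each.

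A few regions inside WNT genes had fold enrichments close to that of the FZD8 TSS peak. WNT9B had a region with fold enrichments of 109 and 117 at chr17:46876147-46876952, in the last exon of the canonical transcript (exon 4). WNT2B had one with 97.6 and 111 at chr1:112501693-112502646, upstream of the start of the canonical transcript. In WNT7B, the strongest region, in intron 2 at chr22:45934318-45935594, had 99.6 and 102. WNT3A had 98.9 and 96.0 in intron 1 at chr1:228013103-228013930 and 82.1 and 75.0 in intron 2 at chr1:228043236-228043902. WNT8B, which had no TSS peak, held a region of 1827 bp with 93.4 and 91.5 in its last exon, at chr10:100481462-100483288. In all, 16 regions had a mean fold enrichment of at least 50, among them the promoter region of WNT9A (102 and 99.9), which held its TSS. Of the 16, only those of SFRP1 (55.9 and 46.7, intron 2) and DKK3 (52.5 and 55.1, exon 5) lay outside WNT genes. WNT genes held 130 of the 169 regions, and no share over all genes was computed for this count.

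The strongest region away from TSSs exceeded the strongest TSS peak in 14 of the 24 genes that had both a TSS peak in both replicates and a region with no base within 1 kb of a TSS. Over all genes with both measurements this share was 31.4%. The 14 were 10 of 15 WNT genes, SFRP1, SFRP2, DKK2 and DKK3, and none of 4 FZD genes. WNT3A (97.5 inside the gene against 7.33 at the TSS, means of the replicates), WNT9B (113 against 7.93) and WNT6 (50.6 against 14.6) were clear cases, while WNT4 (24.7 against 24.4) and WNT5B (29.3 against 28.9) differed by less than the spread between the replicates. WNT2B (105 against 259.6) and WNT9A (59.6 against 101) were the other way round, but this order depended on the TSS rule. With peaks assigned by their midpoint, the TSS values fell below the inside regions for both genes (86.3 for WNT2B and 18.9 for WNT9A), and at the canonical TSS for WNT2B alone (86.3). In the 4 FZD genes with a region (FZD3, FZD4, FZD5 and FZD6), the strongest had a mean of 12.1.

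**Figure D4:**
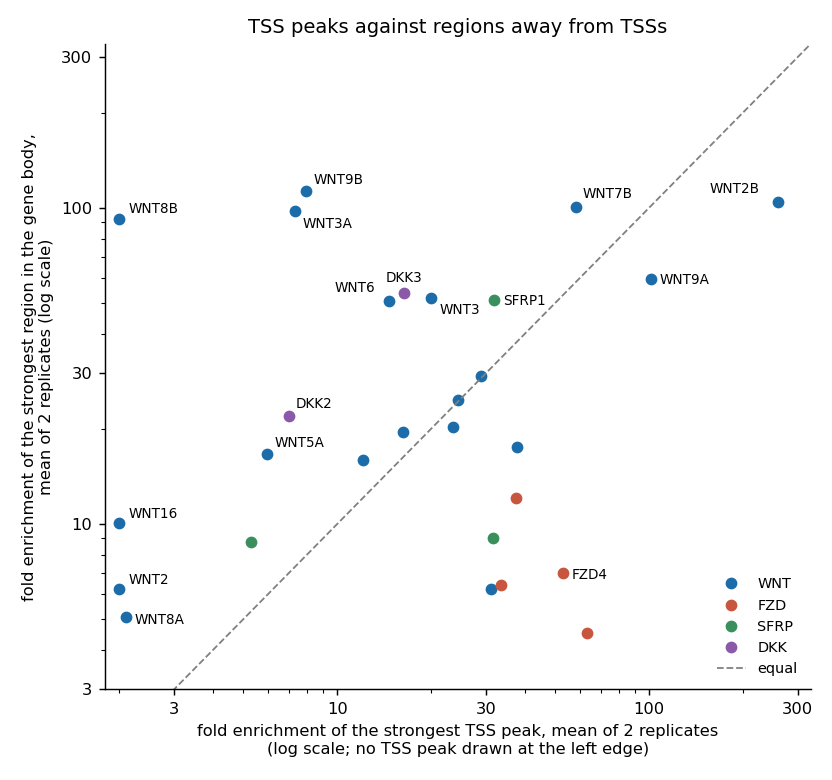
Fold enrichment of the strongest region in the gene body against that of the strongest TSS peak, means of both replicates on log scales, for the 28 genes with a region that has no base within 1 kb of a TSS; genes without a TSS peak are drawn at the left edge and the dashed line marks equal values. WNT8B, WNT9B and WNT3A lie at the upper left, with regions of 92.5 to 113, and the FZD genes at the lower right.

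The central 300 bp of the strongest regions of WNT9B, WNT2B and WNT3A are shown from hg38 on the forward strand, since they were far stronger than the promoters of WNT9B and WNT3A. They lie at chr17:46876399-46876698, within the coding sequence, at chr1:112502019-112502318 and at chr1:228013366-228013665. Capitals mark GC boxes and, in WNT3A, a TCF/LEF motif (CTTTGAA on the reverse strand).
WNT9B: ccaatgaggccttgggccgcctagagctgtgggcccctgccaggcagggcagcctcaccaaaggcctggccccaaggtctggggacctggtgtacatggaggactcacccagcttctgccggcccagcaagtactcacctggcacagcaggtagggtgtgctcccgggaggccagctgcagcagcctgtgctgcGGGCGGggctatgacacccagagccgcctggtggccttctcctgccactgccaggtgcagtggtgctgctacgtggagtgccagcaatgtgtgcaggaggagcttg
WNT2B: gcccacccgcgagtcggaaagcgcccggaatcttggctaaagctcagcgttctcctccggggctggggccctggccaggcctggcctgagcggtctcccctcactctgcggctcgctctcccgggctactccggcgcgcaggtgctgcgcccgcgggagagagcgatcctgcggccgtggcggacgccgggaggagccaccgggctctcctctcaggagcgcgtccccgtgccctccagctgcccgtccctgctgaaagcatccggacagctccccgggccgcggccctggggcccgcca
WNT3A: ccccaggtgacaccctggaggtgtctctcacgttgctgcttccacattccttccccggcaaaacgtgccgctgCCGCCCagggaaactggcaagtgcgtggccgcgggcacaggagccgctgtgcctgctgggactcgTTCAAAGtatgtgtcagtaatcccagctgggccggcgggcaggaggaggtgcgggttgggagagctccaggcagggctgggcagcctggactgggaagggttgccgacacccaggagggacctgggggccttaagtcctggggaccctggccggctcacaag
The WNT2B stretch had 33 CpG sites at a GC content of 74.3% and no searched motif. The WNT9B and WNT3A stretches had 7 and 15 CpG sites at 66.3% in both. Over the 169 regions, 10 (5.92%) held a TCF/LEF motif in the central 300 bp, 8 (4.73%) a forkhead motif, 14 (8.28%) a GATA motif and 17 (10.1%) an AP-1 motif. Among the 93962 regions in all genes these shares were 8.88%, 7.64%, 14.9% and 13.8%. An AP-2 motif was present in 45 (26.6%, against 14.1%) and a GC box in 31 (18.3%, against 7.87%).

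Some WNT genes lie side by side, in pairs that remain from ancestral clusters of the family. WNT3 and WNT9B start 47 bp apart on opposite strands of chromosome 17, and the region chr17:46832984-46833270 covered both TSSs, with fold enrichments of 9.89 and 5.53. This shared region was weak, while 27 regions lay across the pair. It covered the most 5′ TSSs and not those of the canonical transcripts, at chr17:46818692 for WNT3 and chr17:46851583 for WNT9B. The regions over these canonical TSSs had 10.6 and 8.18 in WNT3 and 6.44 and 5.97 in WNT9B. WNT3A and WNT9A lie 59065 bp apart on chromosome 1, and 46 regions lay in and between them. Of these, 15 lay between the genes, with up to 93.4 in replicate 1 and 95.5 in replicate 2. WNT1 and WNT10B are separated by 6586 bp, and 4 regions lay between them, the strongest being the TSS region of WNT1 at 33.8 and 28.5. Between WNT6 and WNT10A, 6618 bp apart, a single region had 12.4 and 12.8.

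**Figure D5:**
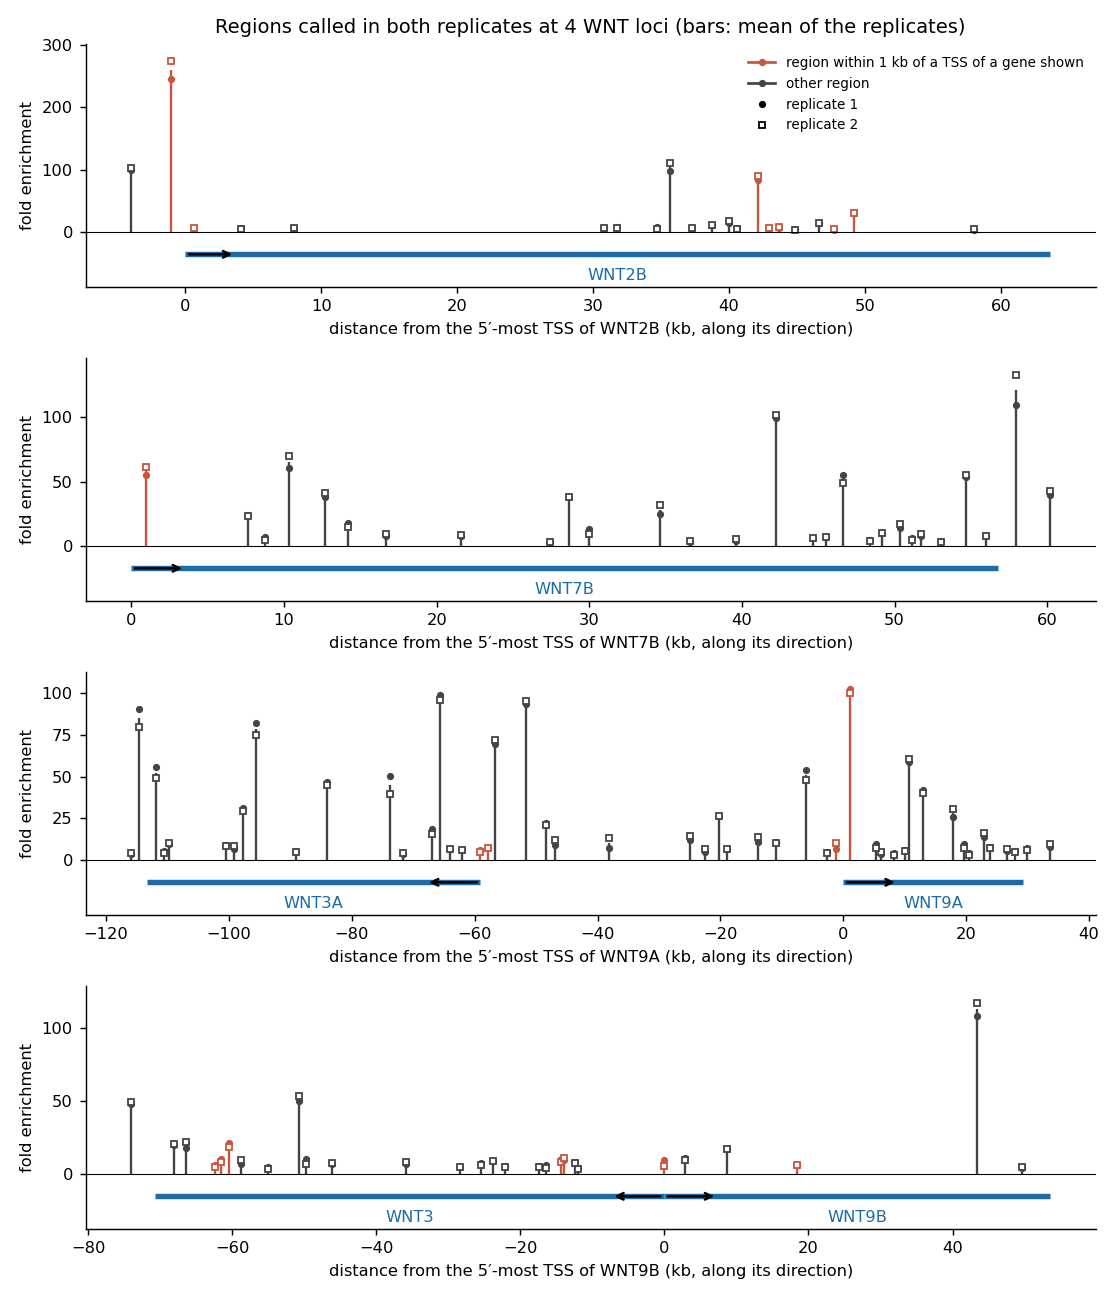
Regions called in both replicates at WNT2B, WNT7B, the pair WNT9A and WNT3A, and the pair WNT9B and WNT3, drawn at their distance (kb) from the most 5′ TSS of the gene named on each axis. Bars show the mean fold enrichment, circles replicate 1 and open squares replicate 2, blue bars the genes and arrows the direction of transcription; red regions lie within 1 kb of a TSS of a gene shown, and the strongest regions of WNT3A (97.5) and WNT9B (113) lie away from any TSS.

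Other genes of the Wnt pathway had TSS peaks at a higher share. Of 58 genes from a list of co-receptors, modulators, cytoplasmic and nuclear components and target genes, 55 (94.8%, 85.9 to 98.2%) had a TSS peak in both replicates, against 80.5% of all genes. Their median fold enrichment, with genes without a peak at 0, was 44.5 and 49.4, and the 12 direct target genes had a median of 27.6 and 33.5. These medians cannot be set against the 52.2 and 54.2 of all genes, which cover only genes with a peak. With genes without a peak at 0, FZD2 (40.0 and 40.7) stood at percentiles 50.0 and 49.4 of all genes. GSK3B and GSK3A, the kinases that mark β-catenin for destruction, had 202 and 213 and 164 and 157, and CTNNBIP1, an inhibitor of β-catenin, had 144 and 140.2. MUSK, FRZB and NKD1 had no TSS peak. The 14 nuclear genes, among them TCF7, TCF7L2 and LEF1, all had one, with a median of 71.9 and 74.9, and the co-receptors LRP5 (73.4 and 62.4) and LRP6 (24.4 and 24.3) stood on either side of the FZD median. Ligands of the R-spondin type, which raise the level of FZD receptors at the cell surface, had weak promoter peaks, with values of 3.22 to 17.7 in replicate 1 and 4.20 to 16.1 in replicate 2 for RSPO1, RSPO2, RSPO3 and RSPO4. WLS, the carrier that brings Wnt ligands to the cell surface, had 6.21 and 6.41. RNF43, which removes FZD receptors from the surface, had 112 and 112.

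The replicates gave similar values for these genes. Of 272 peaks in or near the 37 genes in replicate 1, 240 (88.2%, 83.9 to 91.5%) overlapped a peak of replicate 2, and of 275 in replicate 2, 235 (85.5%, 80.8 to 89.1%) overlapped a peak of replicate 1. Over all autosomal peaks these shares were 90.1% and 84.7%. For WNT5A, WNT9B and WNT11 the strongest peaks of the replicates lay in different regions, so the replicates were compared within the strongest region of each gene. Over the 30 genes, the ratio of replicate 2 to replicate 1 in that region had a median of 1.01 and ranged from 0.559 for WNT9B to 1.39 for WNT5B. The height intervals did not overlap for WNT2B and WNT5B, and overlapped for the other 28. No share over all genes was computed for this count, so it describes these 30 genes only. Heights are counts of stacked reads, and the background was 3.35 reads in replicate 1 and 3.52 in replicate 2. The intervals were not scaled to these backgrounds, so they do not show a difference in fold enrichment.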

How the data were processed

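ATAC-seq was measured in 2 replicates of CAMA-1, which the labels call biological. Per the submitters' processing notes, the authors used Trim Galore 0.6.5, Bowtie2 2.3.5.1 and MACS2 2.2.6 with hg38. MACS2 settings, treatment of duplicates and excluded regions are not given in the sources used here. Each deposited list gives, per peak and per replicate, a score, the fold enrichment (a ratio to background), and the significance as −log10 p-value and −log10 q-value. Replicates were not pooled by the authors.

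Genes and every annotated TSS were taken from GENCODE release 44. A TSS peak had at least 1 bp within 1 kb of a TSS. Regions were overlapping peaks of both replicates, merged. Promoter sequences came from a RefSeq table (GRCh38.p14), which held 25 of the 37 genes. The gene families, the gene lists and the motifs were chosen with earlier results of these data known. The rule that then gave the 37 genes used symbols only. Named genes were the 10 with the strongest TSS peaks, those lacking one and family extremes. Also named were the 5 with most body regions, those with separate TSS regions and neighboring pairs. Every other gene of the 37 is accounted for, and of the pathway list the 3 strongest and those without a TSS peak were named, with further values given for context after they were seen. With 1 condition, no test was run and no p-value computed. Depth was taken only as peak heights, recovered from the fold enrichment, and library read totals were not used here. The scripts ran under Python 3.11.15 with scipy 1.17.1 for intervals, numpy 2.4.6 and, for plots, matplotlib 3.10.9, and were tested on simulated data. Alternatives changed the TSS window, the TSS set, the peak threshold, the overlap rule, the unit, the scaling to neighbors and the CpG definition, and left out each replicate. Several results were computed after the values had been seen. They were the peaks at the TSS scored for CpG and the separate TSS regions over all genes. The body regions set against TSS peaks only in genes with both, and the replicate ratios within a region, were also among them.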

Additional observations from a re-analysis of the deposited data

How the results depend on the processing

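Of 88 alternatives of the 11 main results that kept the unit, 67 kept the value close to that reported and 21 moved it. For counts, close meant within a factor of 1.5. Medians had to stay within the SD of the replicates, and the CpG-rich share within its Wilson interval. For values of single genes in the same unit, 211 of 259 stayed within the spread between the replicates and 48 moved. These counts leave out 2 and 74 values that set 1 of the 2 replicates against their mean, which cannot differ by more than that spread. With the 50000 strongest peaks only, TSS peaks were found in 18 genes (6 WNT and 3 SFRP or DKK), the median fold enrichment was 39.6, the median percentile 28.3, body regions numbered 29 and their median density was 0. At a threshold of 10 for −log10 q, there were 112 body regions, a density of 0.507 and 3 genes with no peak. The SFRP and DKK count was 2 with a window of 100 bp and 2 with the most 5′ TSS only, for which the percentile was 33.4. Over all genes, the share with a TSS peak was 74.3% and 72.8% under these 2 settings. It was 62.6% with the 50000 strongest peaks and 80.5% in the main analysis. The canonical TSS, an alternative chosen after seeing the data, gave a median of 31.5 and a CpG-rich share of 86.5%. The median was 176 in units of −log10 q and 0.565 as a ratio to genes within 5 Mb, with a percentile of 33.4 among them. Regions with any overlap gave a density of 1.02. With a single replicate, the density ranged from 1.33 to 1.37 and 2 genes had no peak. No paired analysis was possible because the 2 samples used here form a single group. Openings below 11 stacked reads, library read totals and DNA copy number were not assessed, and their part in these values was not tested.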
